A study of Mus musculus with 17 samples.

Results

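Gene expression was compared between wild-type (WT) leptotene/zygotene (L/Z) spermatocytes and WT newborn testes, using every RefSeq gene quantified at both stages. A gene entered the comparison if it was listed in the table of each stage and had a status of OK in all 4 WT libraries, which held for 23976 of 23980 genes. The 4 genes left out were 4930513N10Rik, Cnot1, Mir7073 and Ss18. The study sequenced polyA(+) RNA from 17 libraries of WT, Pld6 knockout (KO), Dnmt3l KO and double-knockout germ cells or testes, and the comparison used the 2 WT libraries of each stage. Both WT groups were of the C57BL6/J strain with no mutation or treatment. The L/Z cells were purified by fluorescence-activated cell sorting (FACS) from testes at 3 to 4 weeks after birth and read as single reads of 50 bp, whereas the newborn samples were whole, unsorted testes on postnatal day 0 (P0) read from both ends at 100 bp. Per the paper, the L/Z libraries were also made from far less total RNA than the newborn ones. Stage therefore cannot be told apart from sorting, age, read type or RNA input, and the tables were normalised separately. For this reason no p-value is given, and only large differences and ranks of FPKM (fragments mapped to a gene, scaled by the authors for its transcript length and for library size) are described. The labels call the libraries biological replicates but do not say how many animals each came from.

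Male germ cells enter the testis cords before birth and wait there as non-dividing prospermatogonia, enclosed by Sertoli cells and surrounded by peritubular muscle cells, steroid-producing Leydig cells, vessels and connective tissue. After birth they become spermatogonia, and under retinoic acid they enter meiosis. In leptotene and zygotene, the first steps of meiotic prophase, programmed double-strand breaks are made and the homologous chromosomes are joined by the synaptonemal complex. Later, in pachytene and in the haploid spermatids, a further set of genes for the sperm head and tail is switched on. A newborn testis thus contains few germ cells among many somatic cells, and sorted L/Z cells should contain mainly spermatocytes. In bulk samples of this kind, fewer cells of a type and less RNA per cell cannot be told apart.

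Total estimated fragment counts were 11532722 and 11416082 in the L/Z libraries and 11653201 and 11846972 in the P0 libraries. The first L/Z library differed from the second in its ribosomal RNA, since the 45S precursor Rn45s took 8.27% of its counts against 0.301% in the second and 0.114% and 0.104% at P0. The targeted genes of the study were present in the WT libraries. Pld6 (chromosome 11, 59783893 to 59787657 in GRCm38), a phospholipase-like protein of the mitochondrial surface required for PIWI-interacting RNA (piRNA), had 18.96 and 19.5 FPKM at L/Z and 2.95 and 2.08 FPKM at P0. Dnmt3l (chromosome 10, 78042287 to 78063622), the cofactor of de novo DNA methyltransferases, had 1.09 and 0.637 FPKM at L/Z and 2.91 and 3.98 FPKM at P0.

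Differences were taken as the mean of log2(FPKM + 1) over the L/Z libraries minus that over the P0 libraries, a scale on which the fold of low genes is understated. A difference was called large where it reached 3, that is 8-fold on this scale, and the libraries of the stages did not overlap. Genes with at least 1 FPKM in both libraries of at least 1 stage, 14019 in all, were considered. Of these, 341 (2.43%) were 8-fold or more higher in L/Z cells and 654 (4.67%) were 8-fold or more higher in P0 testes. The median difference over the 14019 genes was 0.03, and 7128 (50.8%) were higher in L/Z by any amount. The libraries of the stages did not overlap for 11903 genes (84.9%), with L/Z above in 5963 (42.5%) and P0 above in 5940 (42.4%), so a lack of overlap alone is common. Between the replicates of a stage, the same 8-fold size was reached by 9 genes at L/Z and 13 genes at P0. The median absolute difference was 0.93 between stages, 0.28 between the L/Z libraries and 0.19 between the P0 libraries. The 99th percentile of the absolute difference was 1.42 between L/Z libraries and 0.91 between P0 libraries, well under the value of 3. By rank, the libraries of a stage were nearly alike, with a Spearman's rho across genes of 0.977 at L/Z and 0.981 at P0, whereas rho lay between 0.610 and 0.659 for the 4 pairs of an L/Z and a P0 library. These correlations are across genes, which are not independent replicates. Among the large differences, 58 genes were higher in L/Z by 6 or more on the log2 scale and 24 were higher in P0 by as much. Protein-coding genes were 11 of the 58 and 22 of the 24, so among them more genes reached this size toward P0. Just inside the threshold of 3 were Dusp2 (3.02) and Eln (-3.0006), and just outside it were Smagp (2.997) and Plin1 (-2.9996).

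**Figure D1:**
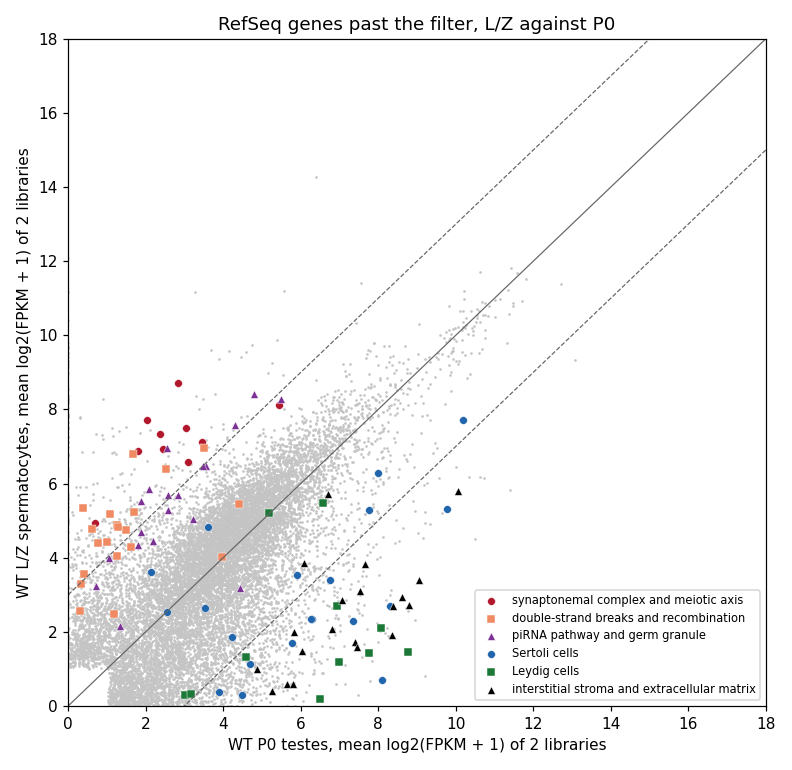
Mean log2(FPKM + 1) of the 2 WT P0 libraries (x axis) against that of the 2 WT L/Z libraries (y axis) for the 14019 genes past the filter (grey), with the members of 6 gene lists in colour. The solid line marks equal levels and the dashed lines a difference of 3; synaptonemal and recombination genes lie at the upper left, and stromal, Leydig and Sertoli genes at the lower right.

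The genes of the synaptonemal complex and the meiotic axis were far higher in L/Z cells. Of 10 genes, 9 were 8-fold or more higher in L/Z and none was in P0, with a median difference of 4.46 against 0.03 over all genes. Sycp3 (chromosome 10, 88459587 to 88473236), a protein of the lateral element along each chromosome axis, had 275 and 627 FPKM at L/Z and 7.36 and 5.01 FPKM at P0, a difference of 5.88. Sycp1 (chromosome 3, 102818499 to 102936100), the transverse filament that joins the axes, had 171 and 256 FPKM at L/Z against 3.28 and 2.90 FPKM at P0 (difference 5.69). Both L/Z libraries thus stood far above both P0 libraries for these genes. Hormad1, which marks axes that are not yet joined, had 120.5 and 264 FPKM against 7.84 and 6.77 FPKM, and Syce3, of the central element, had 118 and 223 FPKM against 4.34 and 4.01 FPKM. The remaining member was Syce2, another central element protein, at 225 and 346 FPKM in L/Z and already 41.2 and 44.0 FPKM in P0 (difference 2.68). In rank, the median member of the list stood at the 97.6th percentile of genes at L/Z and at the 59.0th at P0. Every member of the list was higher in the second L/Z library than in the first, as were 7800 of all 14019 genes.

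Meiotic cohesins, which hold sister chromatids together in prophase, and the proteins that tie telomeres to the nuclear envelope followed, with 5 of 8 genes 8-fold or more higher in L/Z and a median difference of 3.67. Smc1b, a meiosis-specific cohesin subunit, had 141 and 211 FPKM at L/Z against 4.83 and 2.17 FPKM at P0 (difference 5.33), and Stag3, another, had 117 and 165 FPKM against 7.02 and 5.48 FPKM. The kleisin subunits Rec8 and Rad21l were just under 8-fold, with differences of 2.98 and 2.79. Sun1, a nuclear envelope protein that many cell types make, was 48.0 and 74.7 FPKM at L/Z and 27.7 and 29.4 FPKM at P0.

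Of 20 genes for double-strand breaks and recombination, 13 were 8-fold or more higher in L/Z and none in P0, and the median difference was 3.44. Spo11, the enzyme that cuts the DNA, had 13.2 and 30.4 FPKM at L/Z and 0.910 and 0.539 FPKM at P0 (difference 3.62). Prdm9, which places the hotspots where breaks are made, had 20.5 and 39.7 FPKM against 1.61 and 1.21 FPKM (3.62). The strand exchange recombinase Dmc1 had 58.8 and 115 FPKM against 5.91 and 3.86 FPKM (3.85). Meiob, a single-strand DNA binding protein, had 24.05 and 65.3 FPKM against 0.162 and 0.435 FPKM, the latter from 3 and 8 fragments (4.98). For each of these genes, the lower L/Z library stood above the higher P0 library by several-fold. The 7 members under 8-fold had differences from 0.05 to 2.96, the highest being Msh4, a protein of crossover sites, and the lowest the recombinase partners Mnd1 and Psmc3ip. Mnd1 had 9.92 and 23.2 FPKM at L/Z and 13.2 and 16.5 FPKM at P0, so its stages overlapped (difference 0.05), and Psmc3ip had 33.1 and 55.9 FPKM against 17.0 and 24.4 FPKM (1.04).

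Genes of meiotic entry and of differentiating spermatogonia, the cells just before meiosis, were also abundant in the sorted cells. Stra8 (chromosome 6, 34920163 to 34939344), the retinoic acid target that starts the meiotic programme, had 125 and 202 FPKM at L/Z and 0.900 and 0.779 FPKM at P0, from 14 and 12 fragments at P0 (difference 6.44). Its mean rank was the 43.5th percentile at P0 and the 97.9th at L/Z. Of 8 genes for meiotic entry and its transcription factors, Stra8, Taf7l and Zfp541 were 8-fold or more higher in L/Z, while Mybl1, a regulator of pachytene genes, overlapped between stages at 7.85 and 12.8 FPKM against 8.96 and 9.97 FPKM. Of 8 genes of differentiating spermatogonia, 7 were 8-fold or more higher in L/Z, with the largest list median of the 24 lists, 4.52. These included Dmrtb1, which governs the switch from mitosis to meiosis, at 97.9 and 134 FPKM against 0.407 and 0.154 FPKM, and the testis protease Prss50 at 132 and 371 FPKM against 0.450 and 0.0649 FPKM. Kit, the receptor that marks differentiating spermatogonia, had 65.1 and 53.7 FPKM against 5.90 and 3.03 FPKM, and Sohlh1, a transcription factor of the same cells, had 120.2 and 92.4 FPKM against 4.58 and 5.31 FPKM. Rhox10 was the member without a large difference (0.87).

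**Figure D2:**
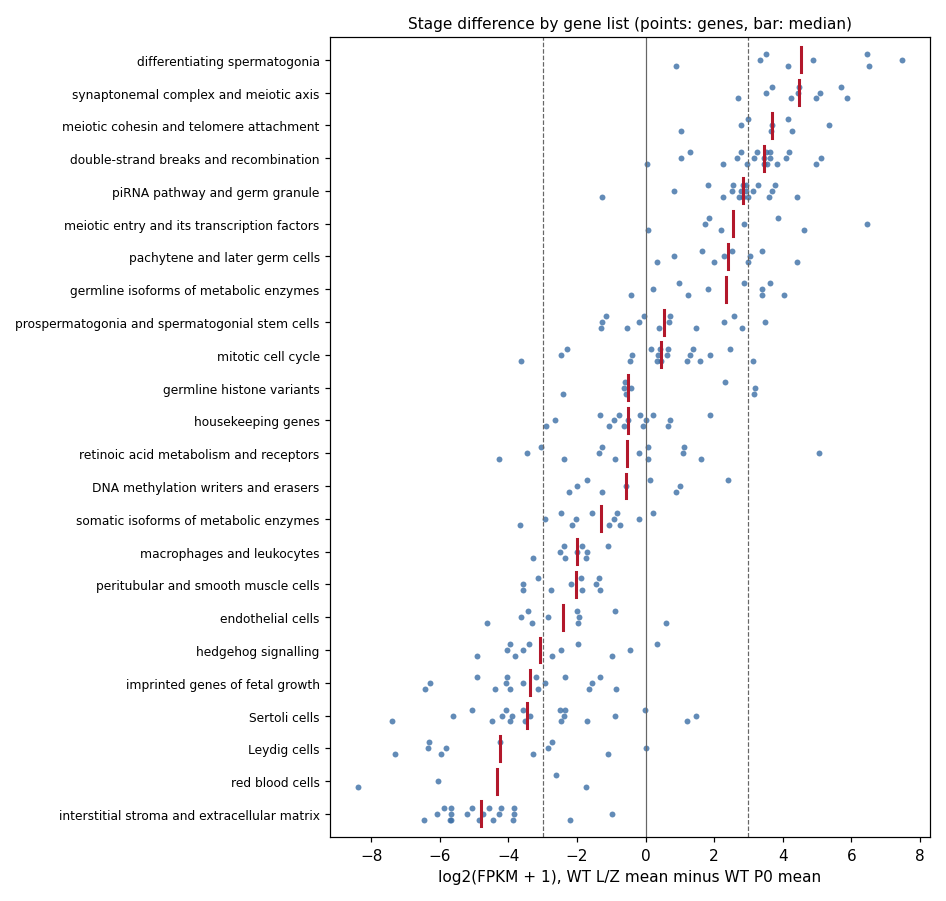
Difference in log2(FPKM + 1) between WT L/Z and WT P0 (x axis) for the members past the filter of each of the 24 gene lists (rows, ordered by median). Points are genes, red bars are list medians and dashed lines mark -3 and 3; medians run from -4.81 for stroma to 4.52 for differentiating spermatogonia.

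Promoter sequence was examined because these genes differed in the same direction. RefSeq lists a single promoter window for 182 of the 241 protein-coding genes higher in L/Z, for 347 of the 628 higher in P0 and for 8503 of the 13314 past the filter, and 5 motifs were searched on both strands in the 250 bases before the start. The E-box CACGTG was found in 22 L/Z promoters (12.1%), in 17 P0 promoters (4.90%) and in 741 of all (8.71%). CNCCTCAG, the sequence bound by STRA8, was found in 22 L/Z promoters (12.1%), 22 P0 promoters (6.34%) and 630 of all (7.41%). The E2F site GCGGGAA was found in 17 (9.34%), 19 (5.48%) and 620 (7.29%), and the cAMP response element TGACGTCA in 2 (1.10%), 5 (1.44%) and 243 (2.86%). AAGGTCA, the half-site of the steroidogenic factor NR5A1, was found in 6 (3.30%), 13 (3.75%) and 224 (2.63%). No motif was thus held by more than 12.1% of either group, and the shares are a description without a test. The median number of CG dinucleotides in the window was 10 for the L/Z group, 9 for the P0 group and 16 for all promoters. The 150 bases before the start are shown for Sycp3 (chr10:88459437-88459586, plus strand), Sycp1 (chr3:102936101-102936250, minus strand), Smc1b (chr15:85131958-85132107, minus strand) and the X-linked gene Esx1 (chrX:137120327-137120476, minus strand), which were higher in L/Z and hold at least 1 of the motifs, and for the Leydig cell gene Insl3 (chr8:71689102-71689251, plus strand), which was higher in P0 and also holds 1. They are taken from RefSeq on GRCm38.p6 and written in the direction of the gene, with motif matches on either strand in capitals.
Sycp3: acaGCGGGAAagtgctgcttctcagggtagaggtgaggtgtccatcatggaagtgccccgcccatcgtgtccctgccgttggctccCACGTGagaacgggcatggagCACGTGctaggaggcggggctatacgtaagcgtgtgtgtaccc
Sycp1: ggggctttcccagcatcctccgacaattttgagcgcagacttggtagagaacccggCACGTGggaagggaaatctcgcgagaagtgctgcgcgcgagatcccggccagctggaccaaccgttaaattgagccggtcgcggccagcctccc
Smc1b: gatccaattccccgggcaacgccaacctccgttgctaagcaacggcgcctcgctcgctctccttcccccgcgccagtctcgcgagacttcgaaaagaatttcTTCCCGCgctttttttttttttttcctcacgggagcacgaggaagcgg
Esx1: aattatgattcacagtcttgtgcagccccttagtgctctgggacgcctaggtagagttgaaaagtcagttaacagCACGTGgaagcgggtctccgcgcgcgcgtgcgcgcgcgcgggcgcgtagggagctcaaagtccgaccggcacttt
Insl3: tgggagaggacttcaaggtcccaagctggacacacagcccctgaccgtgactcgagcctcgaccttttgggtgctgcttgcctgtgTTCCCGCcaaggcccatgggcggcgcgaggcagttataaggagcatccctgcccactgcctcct

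The piRNA pathway and the germ granule, the cytoplasmic body where piRNAs are made, were higher in L/Z for 18 of 19 genes, by a median of 2.85, although only 6 reached 8-fold. Of all genes, 50.8% were higher in L/Z by any amount and 2.43% by 8-fold or more. The germ cell RNA helicase Ddx4 had 164 and 222 FPKM at L/Z and 22.2 and 15.6 FPKM at P0 (difference 3.29). Mov10l1, the helicase that feeds precursors into the pathway, had 101 and 152 FPKM against 5.20 and 4.58 FPKM (4.41), and the PIWI protein Piwil2 had 88.6 and 87.5 FPKM against 12.2 and 9.36 FPKM (2.93). Pld6 itself differed by 2.54, with no overlap. The PIWI protein of fetal germ cells, Piwil4, was low at both stages, at 4.92 and 2.40 FPKM against 1.45 and 1.62 FPKM (0.83). Tdrd3, a Tudor protein also made outside the germ line, was the member that was lower in L/Z, at 6.75 and 9.49 FPKM against 20.9 and 20.3 FPKM.

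Genes of prospermatogonia and spermatogonial stem cells did not have a common direction. Of 14 such genes past the filter, 8 were higher in L/Z and 6 lower, and the median difference was 0.54. Lin28a, an RNA-binding protein of undifferentiated germ cells, was the member with a large difference, at 41.7 and 21.3 FPKM in L/Z and 1.96 and 1.61 FPKM in P0 (3.48), and Zbtb16, a factor for stem cell maintenance, had 24.9 and 10.7 FPKM against 2.59 and 1.38 FPKM (2.58). In contrast, Dnmt3l was lower in L/Z by 1.26, with no overlap, and Etv5, a target of GDNF signalling that Sertoli cells also make, was lower by 1.30. The GDNF receptor genes Gfra1 (6.63 and 3.62 FPKM against 6.65 and 4.92 FPKM) and Ret (10.6 and 4.88 FPKM against 5.998 and 2.69 FPKM) overlapped between stages. The libraries did not overlap for 6 of the 14 members higher in L/Z and 3 lower, against 42.5% and 42.4% of all genes. Of the 14 genes, 13 were higher in the first L/Z library than in the second, as were 6136 of all 14019 genes. Among 9 DNA methylation writers and erasers none had a large difference. The de novo methyltransferase Dnmt3b was higher in L/Z (36.0 and 29.9 FPKM against 6.02 and 4.78 FPKM), Dnmt1, which maintains methylation, was higher by 1.02, and the oxidases Tet1 (0.159 and 0.0429 FPKM against 3.26 and 3.59 FPKM) and Tet2 were lower, by 2.01 and 2.22.

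Most genes of pachytene and later stages were low in both groups. Of 22 such genes, 10 passed the filter and 3 were 8-fold or more higher in L/Z, namely Ybx2 (70.1 and 192 FPKM against 3.80 and 5.20 FPKM), which binds stored messenger RNA, the chaperone Hspa2 (40.1 and 118 FPKM against 7.78 and 7.02 FPKM) and Ldhc (14.7 and 30.7 FPKM against 0.796 and 1.47 FPKM), the lactate dehydrogenase of sperm. The genes that define spermatids were at or near 0. Prm2 was 0 in all 4 libraries, Prm1 had 1.71 and 0 FPKM at L/Z and 0 and 0.376 FPKM at P0, and Tnp1 had 3.02 and 2.27 FPKM at L/Z from 8 and 6 fragments. Acrv1, Odf1, Akap4 and Tnp2 were each under 0.6 FPKM in every library. Defining spermatid genes were thus near 0 in the sorted cells. All 10 genes past the filter were higher in L/Z, against 50.8% of all genes. Members such as Ldhc and Tnp1 did not reach 1 FPKM in both P0 libraries and passed the filter only through L/Z. Their direction was thus largely fixed by the filter, and the count is not read as a result.

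Several enzymes of energy metabolism exist as a somatic gene and a germline copy, and for each of 8 such pairs the ratio of the germline to the somatic copy was higher in both L/Z libraries than in either P0 library. Only in 2 pairs did the germline copy exceed the somatic one in both L/Z libraries, and in none did it at P0. Ldhc made up 56.2% and 78.8% of the summed FPKM of Ldhc and Ldha at L/Z and 0.656% and 0.951% at P0, where Ldha had 121 and 153 FPKM. The germline ADP/ATP carrier Slc25a31 made up 79.8% and 88.6% of itself and Slc25a4 at L/Z and 5.78% and 4.31% at P0. Pdha2, of pyruvate dehydrogenase, took 40.9% and 64.8% of its pair at L/Z, and the germline cytochrome c Cyct 44.6% and 48.7%. In contrast, Pgk2 took 1.47% and 0.735% of its pair with Pgk1 and Gapdhs 0.130% and 0.156% of its pair with Gapdh at L/Z. The germline copies thus did not appear together, and Pgk2 and Gapdhs, which serve sperm, were hardly present.

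Genes of somatic cells of the testis were mostly higher in P0. Of 20 Sertoli cell genes, 11 were 8-fold or more higher in P0 and none in L/Z, and the median difference was -3.44. Amh (chromosome 10, 80805240 to 80807679), the hormone by which Sertoli cells make the female ducts regress, had 6.97 and 4.22 FPKM at L/Z and 369 and 265 FPKM at P0 (difference -5.60). Ptgds, a prostaglandin synthase, had 0.839 and 0.421 FPKM from 6 and 3 fragments against 272 FPKM in each P0 library (-7.40). Inha, an inhibin subunit, was lower by 4.47 but still had 44.4 and 33.3 FPKM at L/Z against 832 and 915 FPKM at P0, and the secreted chaperone Clu had 264 and 167 FPKM against 1139.7 and 1206 FPKM. The niche signals Kitl (3.76 and 1.22 FPKM against 53.7 and 54.5 FPKM) and Gdnf (0.331 and 0.256 FPKM against 16.7 and 11.6 FPKM) were also lower in L/Z. The members higher in L/Z were Cldn11, a tight junction protein of the mature Sertoli cell, at 32.5 and 23.5 FPKM against 11.1 and 11.5 FPKM, and Rhox5, at 11.1 and 11.2 FPKM against 4.16 and 2.80 FPKM. Summed over the list, Sertoli genes came to 550 and 382 FPKM in the L/Z libraries and 3803 and 3708 FPKM at P0.

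Leydig cell genes for testosterone synthesis were among the largest differences of the comparison. Of 11 genes, 7 were 8-fold or more higher in P0, with a median of -4.24. Hsd3b1 (chromosome 3, 98842356 to 98859794) had 1.18 and 2.51 FPKM at L/Z against 458 and 417 FPKM at P0 (difference -7.31). Cyp11a1, which makes the first steroid from cholesterol, had 1.39 and 1.99 FPKM against 198 and 240.4 FPKM (-6.35), and Cyp17a1 had 2.47 and 0.464 FPKM against 122 and 130.4 FPKM (-5.82). Insl3, the hormone of testis descent, had 9.71 FPKM in the first L/Z library and 0.739 FPKM in the second, against 231 and 312 FPKM at P0 (-5.96). Fdx1, an electron carrier present in all mitochondria, was the same at both stages (0.02), with overlapping libraries. Outside the list, Hsd17b1 (0.227 and 0.228 FPKM from 3 fragments each against 178 and 174 FPKM) and Hsd17b3 (0.856 and 0.390 FPKM against 228 and 211 FPKM), both of sex steroid synthesis, were among the 12 largest differences toward P0.

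Genes of interstitial stroma and extracellular matrix showed the lowest list median, -4.81, and 18 of 20 were 8-fold or more higher in P0. The collagen gene Col1a2 had 16.4 and 2.34 FPKM at L/Z and 378 and 401 FPKM at P0 (difference -5.68). The proteoglycan Dcn had 23.4 and 3.51 FPKM against 431 and 656 FPKM (-5.67), and Pdgfra, the receptor that marks mesenchyme, had 4.21 and 1.12 FPKM against 164 and 175 FPKM (-5.68). Fn1 (59.2 and 45.8 FPKM against 96.6 and 112 FPKM) and Col5a1 were the members that did not reach 8-fold. All 20 genes were higher in the first L/Z library than in the second, as were 6136 of all 14019 genes. Among peritubular muscle genes, 3 of 10 were 8-fold or more higher in P0, with Acta2, smooth muscle actin, at 32.9 and 10.3 FPKM against 176 and 306 FPKM. Endothelial genes were higher in P0 in 9 of 10 cases, as were 6891 of all 14019 genes. Cdh5, the cadherin of vessels, had 2.70 and 1.03 FPKM against 66.9 and 67.0 FPKM (-4.63). Of 9 macrophage and leukocyte genes, Lyz2, at 7.497 and 0.396 FPKM against 35.6 and 29.8 FPKM, was the one with a large difference. The adult beta-globin Hbb-bt had 1.58 and 0.198 FPKM from 8 and 1 fragments at L/Z against 419.5 and 831 FPKM at P0, the largest difference toward P0 (-8.40). Globin genes lie in near-identical pairs, so how fragments were divided among Hbb-bt, Hbb-b1 and Hbb-bs is uncertain.

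**Figure D3:**
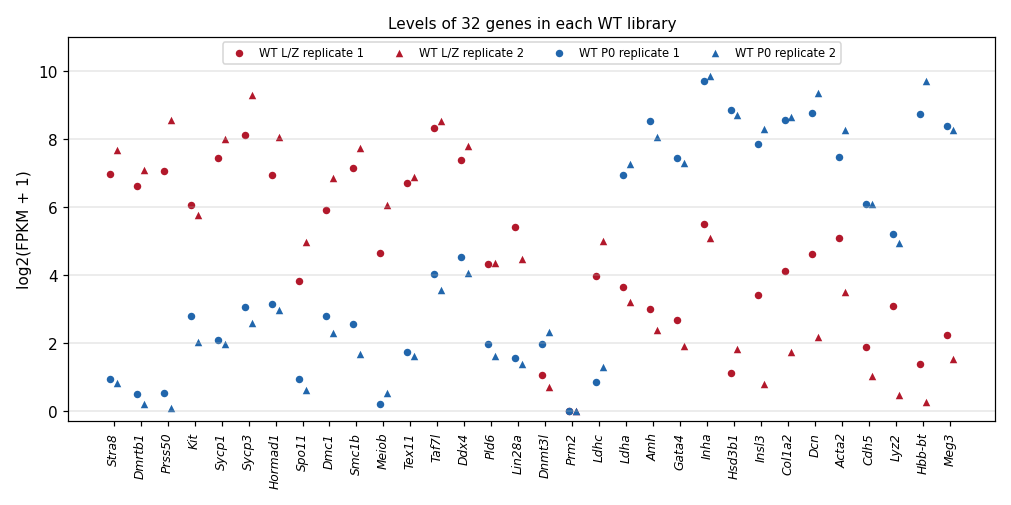
Level of named germ cell, somatic and blood genes as log2(FPKM + 1) (y axis) in each WT library, L/Z in red and P0 in blue, replicate 1 as circles and replicate 2 as triangles. Germ cell genes at the left are high in L/Z (Sycp3 at 275 and 627 FPKM), the spermatid gene Prm2 is at 0 in all 4 libraries, and somatic genes at the right are high in P0 (Amh at 369 and 265 FPKM), with the first L/Z library above the second for Dcn, Col1a2 and Lyz2.

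Imprinted genes of fetal growth, which are expressed from only the maternal or the paternal copy and decline after birth in many tissues, were lower in L/Z throughout. All 16 genes past the filter were below P0 with no overlap, as were 42.4% of all genes, and 10 of the 16 differed by 8-fold or more, with a median of -3.38. The non-coding RNA Meg3 had 3.67 and 1.89 FPKM against 329.8 and 305 FPKM (difference -6.44), the zinc finger gene Plagl1 had 3.05 and 1.70 FPKM against 245 and 266 FPKM (-6.27), and the growth factor Igf2 had 12.3 and 10.6 FPKM against 130.1 and 166 FPKM (-3.57). Hedgehog signalling, by which Dhh from Sertoli cells acts on Leydig and peritubular cells, was lower in 11 of 12 genes, 6 of them by 8-fold or more. Of all 14019 genes, 6891 were lower in L/Z by any amount and 4.67% by 8-fold or more. The ligand Dhh had 5.18 and 3.12 FPKM against 78.8 and 76.6 FPKM (-3.96), the receptor Ptch1 6.49 and 1.59 FPKM against 59.1 and 45.2 FPKM (-3.58), and the target and effector Gli1 1.12 and 0.611 FPKM against 56.1 and 53.3 FPKM (-4.91). Ligand, receptor and target thus lay on the same side.

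Genes of retinoic acid metabolism were divided. Of 14 past the filter, 1 was 8-fold or more higher in L/Z and 3 in P0, against 2.43% and 4.67% of all genes. By any amount 6 of the 14 were higher in L/Z, and the median was -0.53. Crabp1, a protein that binds retinoic acid in the cytoplasm, had 298 and 361 FPKM at L/Z against 8.43 and 9.18 FPKM at P0 (difference 5.07). The synthesis enzyme Aldh1a1 had 40.9 and 21.2 FPKM against 539 and 648 FPKM (-4.28), and the retinol transporter Stra6 had 0.855 and 1.05 FPKM against 19.9 and 20.6 FPKM (-3.44). Of the receptors, Rarg was higher in L/Z (19.9 and 22.2 FPKM against 5.23 and 7.31 FPKM) and Rara was lower (15.9 and 13.3 FPKM against 40.1 and 33.8 FPKM). Of 19 mitotic cell cycle genes, 14 were higher in L/Z, against 50.8% of all genes, with a median of 0.44. The D-type cyclins, which drive entry into the cycle, differed in direction. Ccnd1 had 58.6 and 67.7 FPKM at L/Z against 7.42 and 5.20 FPKM at P0, whereas Ccnd2 had 12.4 and 5.46 FPKM against 127 and 104 FPKM and Ccnd3 had 15.7 and 17.2 FPKM against 85.9 and 105 FPKM. The proliferation marker Mki67 overlapped between stages, at 95.1 and 75.3 FPKM against 51.4 and 75.4 FPKM.

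Among 8 histone genes past the filter, 3 were higher in L/Z, against 50.8% of all genes, and the median was -0.51. The testis H2B gene Hist1h2ba (12.1 and 15.5 FPKM against 0.613 and 0.656 FPKM) and the testis H2A gene Hist1h2aa (15.2 and 4.06 FPKM against 0 FPKM in both P0 libraries) were 8-fold or more higher in L/Z, as were 2.43% of all genes. Both passed the filter only through L/Z, so their count is not read as a result. The linker histone H1fx was higher in L/Z (111 and 240.0 FPKM against 31.8 and 31.7 FPKM), whereas H1f0, the linker histone of cells that have stopped dividing, was lower (33.8 and 54.6 FPKM against 229.9 and 234 FPKM). None of 15 housekeeping genes had a large difference, and their median was -0.52. Rplp0 was level at 1225 and 1261 FPKM against 1196 and 1266 FPKM, but B2m and Gusb, which are often used as references, were lower in L/Z by 2.90 and 2.63.

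In rank, genes for translation were among the 10 genes of highest mean FPKM at each stage. Eef1a1, an elongation factor and a member of both lists, had 2700.4 and 2638 FPKM at L/Z and 6321 and 7179 FPKM at P0. Other places in these lists were set by 1 library. Mir6236 had 161918 FPKM in the first L/Z library and 2459 FPKM in the second, Lars2 had 7233 and 119 FPKM and Rn45s 14284 and 515 FPKM, and at P0 Mir680-2 had 0 and 187702 FPKM, the latter from 1 fragment. The fold of such genes is not interpreted here.

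By the rule for naming, the 12 largest differences toward L/Z were all in genes for small RNA, and each had 0 fragments in both P0 libraries. Snord2, a small nucleolar RNA within a protein gene, had 6548 and 2862 FPKM at L/Z from 39 and 17 fragments, relative to library totals at least 9.54-fold higher than a floor of 3 fragments in each P0 library. Snord34 reached 3464 FPKM in the second L/Z library from 18 fragments. Of the 36 miRNA and 37 small nucleolar RNA (snoRNA) genes past the filter, 31 and 33 were 8-fold or more higher in L/Z. These 64 genes had a median of 3.75 fragments a library at L/Z, and 57 of the 64 were at 0 at P0. Genes at 0 at P0 could pass the filter only through L/Z. The shares called were thus largely fixed by the filter and are not read as a result. Against the floor, a bound could be set for 27 of these 57, and it reached 8-fold for 2, while Snord34 was at least 3.26-fold and Mir762 at least 7.86-fold higher. The 8-fold calls of most of these genes thus hold on the FPKM scale but cannot be shown from their fragments. These genes are shorter than most transcripts, and the stages differed in read type, single reads of 50 bp against read pairs of 100 bp. The part of read type in the result was not tested. Protein-coding genes made up 241 of the 341 genes higher in L/Z and 628 of the 654 higher in P0, with a median of 822.5 fragments a library in the former.

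Among protein-coding genes with a mean of at least 50 fragments, a group chosen after the values were seen, the largest difference toward L/Z was Rps27 (7.89), at 1759 and 3031 FPKM against 8.48 and 8.94 FPKM. Its near-identical copy Rps27rt had 1016 and 2.19 FPKM at L/Z and 2412 and 2991 FPKM at P0, so the division of fragments between the copies, and hence each difference, is uncertain. After it came Prss50 (7.48), and with it genes of the germ cell surface and of unknown function. Tex101, a surface protein of germ cells, had 503 and 1217 FPKM against 12.6 and 11.1 FPKM (5.94), and Ly6k, of the same family, had 113 and 293 FPKM against 2.31 and 1.40 FPKM (6.03). On the other side, Pdlim3 (2.08 and 0.737 FPKM against 225 and 234 FPKM), a muscle protein, Mfap4 (9.01 and 1.48 FPKM against 411 and 583 FPKM), of elastic fibres, and the chemokine Cxcl12 (4.34 and 1.53 FPKM against 354 and 258 FPKM) stood beside the steroid enzymes.

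The X chromosome differed from the autosomes in its share of genes higher in L/Z and in its median difference, and only slightly in its share higher in P0. The X is silenced in pachytene spermatocytes, but it also carries many genes that are expressed in spermatogonia. Of 584 X-linked genes past the filter, 62 (10.6%) were 8-fold or more higher in L/Z, against 273 of 13364 autosomal genes (2.04%) and between 0.833% and 3.15% on single autosomes. At the same time, the median difference of X-linked genes was -0.40, below that of every autosome, which ranged from -0.26 to 0.23. A further 39 X-linked genes (6.68%) were 8-fold or more higher in P0, against 4.58% of autosomal genes and between 2.58% and 6.17% on single autosomes. Among protein-coding genes alone, the L/Z shares were 9.76% on the X and 1.44% on the autosomes. Genes under 1 FPKM at P0, on the X for example Ott and Luzp4, passed the filter only through L/Z. The size of these shares thus rests partly on the filter. With no filter, they were 5.95% on the X and 1.21% on the autosomes, and the X-linked median minus the autosomal one was 0. The genes are not independent replicates, and no test was made.

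The X-linked genes higher in L/Z included several known from the male germ line. Fmr1nb had 94.5 and 228 FPKM at L/Z against 1.27 and 0.541 FPKM at P0 (difference 6.30), the homeobox gene Esx1 had 88.7 and 146 FPKM against 1.56 and 0.991 FPKM (5.67), and Tex11, a protein needed for crossing over, had 103 and 116 FPKM against 2.32 and 2.08 FPKM (5.12). Taf7l, a germ cell version of a subunit of transcription factor TFIID, had 315 and 366 FPKM against 15.3 and 10.7 FPKM (4.63). Sox3, a transcription factor of spermatogonia, had 43.7 and 39.7 FPKM against 0.568 and 0.395 FPKM (4.85). Scml2, a Polycomb protein of the germ line, had 273 and 139 FPKM against 16.1 and 13.6 FPKM (3.63). Many others belong to families with several copies. Of the 9 Xlr genes past the filter, 5 were higher in L/Z by 8-fold or more, as were 4 of 16 Rhox genes, 3 of 17 Mage genes and 21 of 39 genes named Gm with a number. Before the filter, these families had 9, 31, 20 and 137 X-linked genes. Members at 0 FPKM in both P0 libraries, such as Gm6268, Gm14511 and Gm6568, passed it only through L/Z, so the shares past the filter are not read as family traits. Near-identical copies share fragments, so single values in these families are uncertain. Without these 4 families, 29 of 503 X-linked genes (5.77%) were higher in L/Z by 8-fold or more, against 1.95% of autosomal genes without Gm-numbered genes, and the X-linked median was -0.68. X-linked genes higher in P0 were led by Itm2a (3.42 and 2.42 FPKM against 254 and 325 FPKM) and Agtr2, the type 2 angiotensin receptor of fetal mesenchyme (0.126 and 0.0633 FPKM against 64.5 and 67.1 FPKM).

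**Figure D4:**
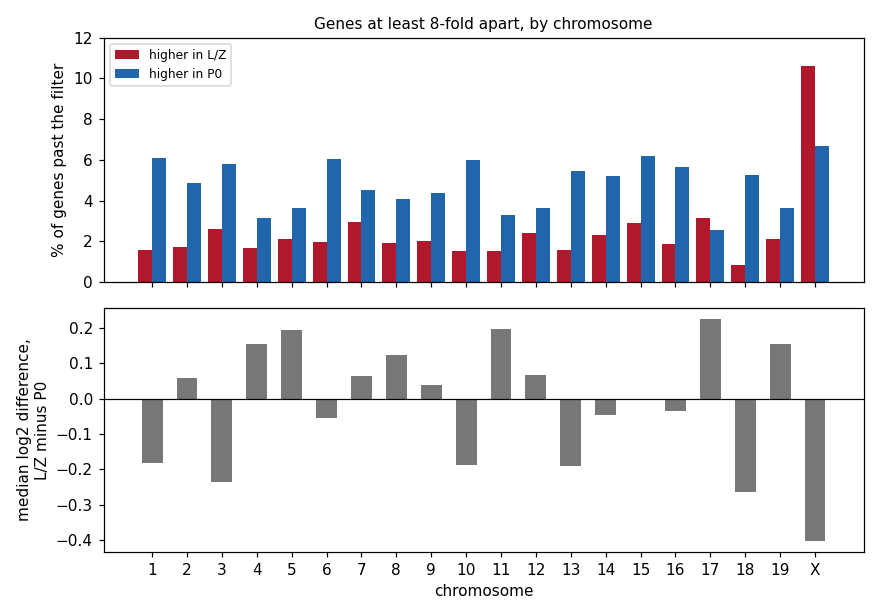
Top, percentage of genes past the filter on each chromosome (x axis) that were 8-fold or more higher in L/Z (red) or in P0 (blue). Bottom, median log2 difference of the same genes, L/Z minus P0. On the X, 10.6% of genes past the filter were higher in L/Z, and the median was -0.40.

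The L/Z libraries differed from each other along the same gene lists. Over all 14019 genes past the filter, 6136 were higher in the first L/Z library and 7800 in the second (median -0.05). The first had more RNA of stroma (median log2 difference of the first minus the second 1.24, higher in 20 of 20 genes), of macrophages (1.35, 9 of 9), of peritubular muscle (0.74, 10 of 10), of Sertoli cells (0.45, 18 of 20) and of spermatogonial stem cells (0.62, 13 of 14). The second had more of the synaptonemal complex (-0.83, higher in the second in 10 of 10), of recombination (-0.87, 19 of 20) and of pachytene and later genes (-1.03, 8 of 10). For example, Clgn, a chaperone of spermatocytes, had 15.3 FPKM in the first and 54.3 FPKM in the second, whereas Zbtb16 had 24.9 and 10.7 FPKM. The corresponding medians between the P0 libraries did not exceed 0.42 in size. The part of this difference between the sorted samples in the stage comparison was not tested, but without the first L/Z library 435 genes were higher in L/Z and 768 in P0, and without the second 363 and 548.

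**Figure D5:**
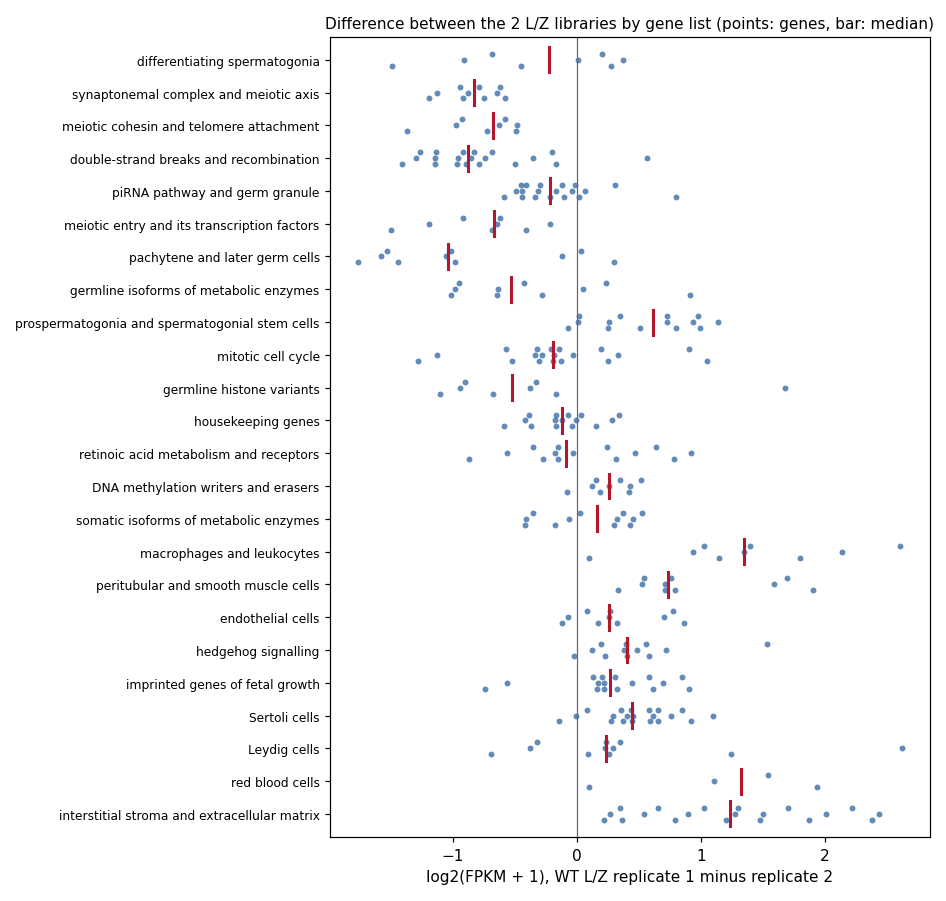
Difference in log2(FPKM + 1) between the 2 WT L/Z libraries, the first minus the second (x axis), for members of the 24 gene lists (rows in the same order as in the plot of stage differences by list). Points are genes and red bars medians; stromal and macrophage lists lie to the right (1.24 and 1.35) and pachytene and recombination lists to the left (-1.03 and -0.87).

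The same stage comparison was made in the mutants, whose libraries are separate from the WT ones. As in WT, stage cannot be told apart from sorting, age, read type or RNA input there, so a shared direction does not single out stage. Of all genes past the filter, 703 of 13856 in Pld6 KO and 816 of 14078 in Dnmt3l KO were 8-fold or more higher at P0. Toward L/Z, 289 and 363 genes were. Of the 654 genes higher in WT P0 testes, all 654 were also higher at P0 in both mutants. In Pld6 KO, with 2 L/Z and 4 P0 libraries, 565 of them were so by 8-fold or more without overlap, and in Dnmt3l KO, with 2 of each, 598 were. Of the genes higher in WT L/Z cells, 329 of 340 with an OK status in Pld6 KO and 326 of 341 in Dnmt3l KO had the same direction, and 236 and 242 were 8-fold or more higher without overlap. The medians of the lists were close to WT in the mutants for the synaptonemal complex (4.58 with Pld6 lost and 4.73 with Dnmt3l lost) and for stroma (-5.27 and -5.33). Pachytene and later genes had 1.33 and 0.51 against 2.41 in WT, and the germline isoforms of metabolic enzymes 1.23 and 0.84 against 2.34. Members of each list were those past the filter in WT, and some passed it only through WT L/Z. Lower medians in the mutants are thus partly fixed by that choice and are not read as a result. In Dnmt3l KO, 9 of the 10 pachytene and later genes were higher in the first P0 library than in the second, among them Ybx2 at 16.8 and 4.71 FPKM. Without that first library, an alternative chosen after the data were seen, the medians of these lists in Dnmt3l KO were 1.23 and 1.60. Ldhc had 10.4 and 5.78 FPKM at L/Z in Dnmt3l KO and 54.7 and 1.74 FPKM in its P0 libraries, so that its direction was opposite, through the first of these P0 libraries. On the X, 10.1% of genes were higher in L/Z in Pld6 KO and 12.01% in Dnmt3l KO, against 1.67% and 2.10% on the autosomes, while the X-linked median minus the autosomal one was -0.26 and -0.07 against -0.44 in WT.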

How the data were processed

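PolyA(+) RNA was sequenced from strand-specific libraries (TruSeq stranded mRNA kit). Per the labels and the methods of the study, the authors aligned reads to mm10 with TopHat2 and obtained values for RefSeq genes from Cuffdiff. The tool versions are not given in the sources used here. The deposited tables, 1 per stage, hold estimated counts of fragments per gene and library, unscaled. The deposited FPKM values were scaled by the authors for transcript length and library size within each table. Replicates were not pooled. Replicates are numbered from 0 in the tables and from 1 in the labels, and they were matched in ascending order. Cuffdiff divides fragments among similar transcripts, so near-identical genes are uncertain.

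From these files, log2(FPKM + 1) was averaged per stage and differences were taken per gene with Python 3.11.15, pandas 2.3.3 and numpy 2.4.6. Ranks are percentiles among the 23976 genes in each library. No test across stages was made. Alternatives on counts used TMM factors from edgeR 4.0.16 and size factors from DESeq2 1.42.0 in R 4.3.3, on counts rounded to whole numbers. Counting error alone limits genes with few fragments. Positions, biotypes and promoters come from RefSeq GRCm38.p6, which matched 23820 genes by symbol or synonym. Calls were checked on simulated data.

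Named genes were the 12 largest differences each way, the 10 highest mean FPKM at each stage, Pld6, Dnmt3l and defining or discordant members of 24 lists (326 genes in the tables, 289 past the filter). Others were chosen after their values were seen. The genes, lists and rules were chosen with earlier results of these data known. Retrotransposons, small RNA libraries and DNA methylation were not analysed here. Some genes that the rule would name are not reported here.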

Additional observations from a re-analysis of the deposited data

Results flagged for a closer look

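Lars2, the mitochondrial leucyl-tRNA synthetase gene, had opposite directions in WT and Dnmt3l KO. In WT it had 7233 and 119 FPKM at L/Z and 52.1 and 32.2 FPKM at P0, a log2 difference of 4.47, or 1.51 without the first L/Z library. In Pld6 KO it had 7774 and 46.3 FPKM at L/Z and between 57.7 and 2097 FPKM in the 4 P0 libraries (log2 difference 0.05), and in the double knockout between 156 and 4859 FPKM at P0. In Dnmt3l KO it had 112 and 64.3 FPKM at L/Z and 268 and 149.7 FPKM at P0, a log2 difference of -1.23. Every L/Z library lay above the P0 libraries in WT and below them in Dnmt3l KO. The difference between the genotypes was not tested. Rn45s, the 45S ribosomal RNA precursor, was also highest among the 4 WT libraries in the first L/Z library, at 14284 FPKM. In Pld6 KO L/Z, Rn45s had 14571 and 237 FPKM. At P0 in the double knockout it had 7995, 1706 and 538 FPKM, where Lars2 had 4859, 508 and 156 FPKM. In Dnmt3l KO it had 455 and 244 FPKM at L/Z and 1119 and 423 FPKM at P0. The 4 Pld6 KO P0 libraries differed, with Rn45s at 0 FPKM in each. The part of ribosomal RNA in the Lars2 values was not tested.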

How the results depend on the processing

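No paired analysis was made because the comparison rests on no test. The 341 genes higher in L/Z became 699 with a pseudocount of 0.1 and 826 with a 4-fold threshold. The 654 genes higher in P0 became 1455 and 1603, and 1013 and 993 with library-scaled counts under TMM factors and DESeq2 size factors. Of the 340 genes higher in L/Z with TMM factors, 248 were among the 341. Leaving out 1 library gave 333 to 435 genes higher in L/Z and 548 to 768 higher in P0. The other alternatives kept both counts within 1.5 times, including 2 chosen after the data were seen. The first of these kept only protein-coding and lncRNA genes (252 higher in L/Z and 646 in P0). The second rescaled FPKM without miRNA and snoRNA genes and without Rn45s and Lars2, which were grouped as rRNA-derived (442 and 902). No list median changed sign. Reversals among named genes were Lars2 (-1.23), Ldhc (-0.49) and Rn45s (-1.04) in Dnmt3l KO, and Mir703, 0.15 with TMM factors and 0.17 with DESeq2 size factors. Their cause was not tested. The share of X-linked genes higher in L/Z was also recomputed under alternatives chosen after the data were seen. It was 5.95% with no filter, against 1.21% of autosomal genes. Otherwise it was 8.90% to 17.6%, against 1.44% to 5.32% of autosomal genes, both highest with the 4-fold threshold. Most small RNA genes rest on a few fragments, which limits their values.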
